A study of Mus musculus with 8 samples.

Results

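The genes described here are the 3 transforming growth factor beta (TGF-beta) ligands Tgfb1, Tgfb2 and Tgfb3, their 3 receptors Tgfbr1, Tgfbr2 and Tgfbr3, and the 4 latent TGF-beta binding proteins Ltbp1, Ltbp2, Ltbp3 and Ltbp4. They were chosen by name, with earlier results of these data known. They were matched by mouse Ensembl identifier, with symbols from the GENCODE annotation of GRCm38. They make up 10 of the 52636 genes in the deposited tables. Expression was measured as TPM, a read count divided by transcript length and scaled so that the transcripts of each library sum to the same total. All 10 genes were among the 12538 expressed protein-coding genes, those over 1 TPM in at least 1 library, and all 10 were over 1 TPM in each of the 8 libraries.

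RNA came from knee articular cartilage of male C57BL/6 mice, labelled as 10 weeks old, that were either wild type (WT) or Oscar-/-, lacking the collagen receptor OSCAR (osteoclast-associated receptor). The mice had sham surgery or destabilization of the medial meniscus (DMM), an operation that loosens the knee and leads to osteoarthritis, and tissue was taken 2 or 4 weeks afterwards. For RNA sequencing the paper's methods name knee joint tissues as the source and articular cartilages as the pooled material. Each of the 8 combinations of genotype, surgery and week was 1 library made from 10 pooled cartilages, and none was repeated. The tests below therefore use the weeks in place of replicates of each combination of genotype and surgery, after allowing for a common shift between weeks. Their p-values refer to the residual spread among libraries and not to the spread between animals.

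TGF-beta ligands are secreted in a latent form, held inactive by their own propeptide, and most of this latent ligand is bound to the matrix by latent TGF-beta binding proteins. Once freed by integrins, proteases or mechanical pull, the ligand joins the type II receptor, which recruits and phosphorylates the type I receptor, and SMAD2 and SMAD3 then carry the signal to the nucleus. In joints the pathway is known for maintaining the articular chondrocyte and its matrix, for the coupling of bone resorption to formation, and for the growth of osteophytes and fibrous tissue.

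The libraries held between 13189181 and 18533609 expected counts. Oscar was at 0 counts in all 4 Oscar-/- libraries and between 1.25 and 4.21 TPM in the 4 WT libraries, so the genotype labels held. Hemoglobin transcripts took 26.5% to 37.7% of TPM, and 11 erythroid markers summed to 266700 TPM or more in every library against 715 to 2460 TPM for 15 chondrocyte markers, none of which was at 0 in every library. Blood and marrow RNA was thus a large part of material labelled as cartilage, and in such bulk RNA fewer cells of a type and less RNA per cell cannot be told apart. The 2-week libraries shared 1 sequencing lane, while at 4 weeks WT and Oscar-/- were on different lanes, so week, and genotype at 4 weeks, cannot be told apart from lane, whereas DMM and sham libraries of a genotype and week always shared a lane.

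Tgfb1 was the leading transcript of the family. Its gene, on chromosome 7 from 25687002 to 25705077 (plus strand, GRCm38), encodes the ligand that is most abundant in blood platelets, bone and many other tissues. Its level ranked first among the 10 genes in all 8 libraries, with a median of 49.7 TPM. Ltbp4 followed with a median of 13.2 TPM, then Tgfbr2 (11.1), Ltbp3 (9.85), Tgfbr1 (8.77), Ltbp1 (7.11), Tgfbr3 (6.12), Tgfb3 (3.83), Ltbp2 (2.47) and Tgfb2 (1.70). Only the step from Tgfb1 to Ltbp4 separated ranges that did not overlap over the 8 libraries. Tgfbr1 exceeded Ltbp1, Tgfb3 exceeded Ltbp2 and Ltbp2 exceeded Tgfb2 within each of the 8 libraries, whereas the order of Tgfbr2 and Ltbp3 held in 5 of 8 and that of Ltbp1 and Tgfbr3 also in 5 of 8. Tgfb2, a ligand that needs the accessory receptor betaglycan for strong binding to the type II receptor, ranked last in all 8 libraries and rested on 87 to 180 expected counts.

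**Figure D1:**
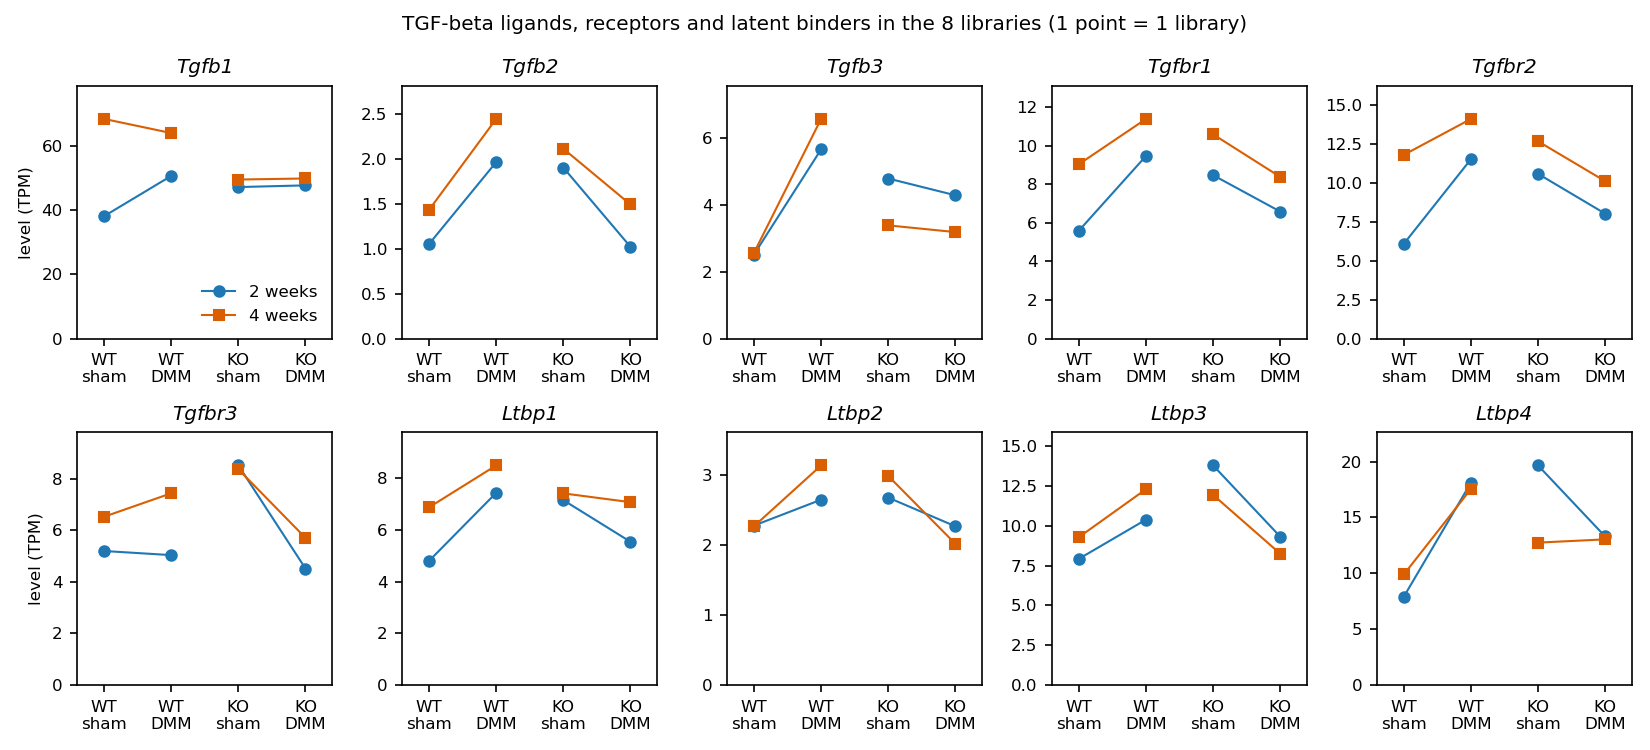
Level of each of the 10 genes in TPM (vertical axes, each from 0) in the 8 libraries, with WT and Oscar-/- (KO) libraries after sham or DMM surgery on the horizontal axis and lines joining the sham and DMM library of 1 genotype and week. Tgfb3 and Ltbp4 stood higher after DMM in WT at both weeks, while Tgfb1 lay between 38.2 and 68.5 TPM with no common direction.

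The comparison of central interest was whether the response to DMM differed between genotypes, tested as the genotype by surgery interaction (the DMM against sham log2 fold change in Oscar-/- minus that in WT, edgeR quasi-likelihood test). The responses of Ltbp4, Tgfb3, Tgfb2, Ltbp3, Tgfbr1 and Tgfbr2 were each lower in Oscar-/- than in WT, by 0.50 to 1.09 on the log2 scale. Thus 6 of 10 genes were called lower and 0 higher at an adjusted p under 0.05, where 3.83% of all 12538 genes were called lower. The 10 genes were chosen with earlier results of these data known. The paper also listed TGF-beta signaling among pathways enriched in genes attenuated by Oscar deficiency in these libraries. The count is therefore not independent of how the genes were chosen. The median difference over the 10 genes was -0.57 on the log2 scale, against -0.008 over all genes. Tgfb1 was the single gene of the 10 with a difference above 0 (0.10 ± 0.14 SE, adjusted p = 0.695, edgeR).

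Ltbp4, on chromosome 7 from 27305136 to 27337692 (minus strand, GRCm38, as for all positions given here), encodes the latent binding protein that also guides elastic fibre assembly, and it showed the difference with the lowest p. WT libraries held 7.91 TPM after sham and 18.1 TPM after DMM at 2 weeks, and 9.90 and 17.6 TPM at 4 weeks. Oscar-/- libraries held 19.7 TPM after sham and 13.3 TPM after DMM at 2 weeks, and 12.8 and 13.04 TPM at 4 weeks. Both WT sham libraries were below every other library, and both WT DMM libraries were above both Oscar-/- DMM libraries. Ltbp4 rose 1.84-fold after DMM in WT (log2 0.88 ± 0.12 SE, edgeR adjusted p = 0.00203), and its value in Oscar-/- was -0.20 ± 0.12 (adjusted p = 0.554). The difference between these responses was -1.08 ± 0.17 (adjusted p = 0.0108).

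Tgfb3, on chromosome 12 from 86056745 to 86079041 (minus strand), is a ligand prominent in cartilage formation and in tendon and palate development, and it too rose in WT. Its level was 2.51 TPM after sham and 5.65 TPM after DMM at 2 weeks in WT, and 2.56 and 6.56 TPM at 4 weeks. The Oscar-/- libraries held 4.78 and 4.28 TPM at 2 weeks, followed by 3.38 and 3.18 TPM. All 4 Oscar-/- libraries thus lay between the WT sham and the WT DMM libraries. The rise in WT was 2.08-fold (log2 1.05 ± 0.16 SE, edgeR adjusted p = 0.00439), the value in Oscar-/- was -0.03 ± 0.16 (adjusted p = 0.96), and the difference was -1.09 ± 0.23 (adjusted p = 0.0284).

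Tgfb2, on chromosome 1 from 186622792 to 186705989 (minus strand), had values of opposite sign in the 2 genotypes, at low levels. WT libraries went from 1.05 TPM after sham to 1.96 TPM after DMM at 2 weeks and from 1.43 to 2.44 at 4 weeks, and Oscar-/- libraries from 1.90 to 1.02 and from 2.11 to 1.49. The DMM library was above its sham library in both WT pairs and below it in both Oscar-/- pairs. Neither response passed the test alone (log2 0.56 ± 0.18 SE in WT, adjusted p = 0.106, and -0.47 ± 0.18 in Oscar-/-, adjusted p = 0.347, edgeR), while their difference of -1.03 ± 0.26 did (adjusted p = 0.044).

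Tgfb1 gave no such pattern. WT libraries held 38.2 and 50.7 TPM after sham and DMM at 2 weeks and 68.5 and 64.1 TPM at 4 weeks, and Oscar-/- libraries 47.2 and 47.8 TPM, then 49.6 and 49.9 TPM. Both WT sham libraries were at the extremes of the range, and the sham and DMM libraries of Oscar-/- were nearly level. On counts scaled by TMM (trimmed mean of M values, which sets the bulk of genes level between libraries), Tgfb1 spanned 100.2 to 128.6 CPM, a level in counts per library scaled to a common total. With edgeR it was called in none of the comparisons, while limma called it higher at 4 than at 2 weeks, and its direction in WT, in Oscar-/- and in the interaction turned with the scaling of the libraries or with 1 library left out.

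The ligand pool was dominated by Tgfb1 throughout. Tgfb1 made up 86.95% to 94.5% of the summed TPM of the 3 ligands, with the highest share in the WT sham library at 4 weeks and the lowest in the WT DMM library at 2 weeks. Tgfb3 took 6.02% of ligand TPM after sham and 9.69% after DMM in the 2-week WT libraries, and 3.53% and 8.98% in those of 4 weeks. In Oscar-/- its share was 8.87% and 8.07% at 2 weeks and 6.14% and 5.83% at 4 weeks. These shares are within a library and so do not depend on how libraries are scaled.

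Among the receptors, Tgfbr1 (chromosome 4, 47353222 to 47414931, plus strand) encodes the type I receptor (ALK5), the kinase that phosphorylates SMAD2 and SMAD3. Its level was 5.60 and 9.48 TPM after sham and DMM in WT at 2 weeks and 9.05 and 11.4 TPM at 4 weeks, and in Oscar-/- it was 8.48 and 6.59 TPM, then 10.6 and 8.39 TPM. Each WT pair was higher after DMM and each Oscar-/- pair lower. The 2 responses differed by -0.54 ± 0.13 (SE, edgeR adjusted p = 0.0359), with log2 values of 0.31 ± 0.09 in WT and -0.23 ± 0.09 in Oscar-/- that did not pass the test alone (adjusted p = 0.0748 and 0.348).

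Tgfbr2 (chromosome 9, 116084293 to 116175360, minus strand) encodes the type II receptor that binds ligand first, and its differences had the same signs as those of Tgfbr1. Its level was 6.09 and 11.5 TPM after sham and DMM in WT at 2 weeks and 11.8 and 14.1 TPM at 4 weeks, and 10.6 and 8.03 TPM, then 12.7 and 10.1 TPM in Oscar-/-. In TPM the WT sham library of 2 weeks was the lowest of the 8 for both of these receptors. The responses differed by -0.50 ± 0.13 (SE, edgeR adjusted p = 0.0474), the nearest to the threshold of the 6 called differences.

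Tgfbr3 (chromosome 5, 107106570 to 107289629, minus strand), or betaglycan, which lacks a kinase and presents ligand to the type II receptor, had the most negative response in Oscar-/- of the 10 genes. Its level was 5.20 and 5.04 TPM after sham and DMM in WT at 2 weeks and 6.53 and 7.44 TPM at 4 weeks. Oscar-/- libraries held 8.52 and 4.52 TPM, then 8.37 and 5.71 TPM, so that the sham libraries of this genotype were the highest of the 8. The log2 response in Oscar-/- was -0.64 ± 0.14 SE (edgeR, unadjusted p = 0.000652, adjusted p = 0.0903) and the difference from WT was -0.50 ± 0.19 (adjusted p = 0.143). Betaglycan made up 30.8% of the summed receptor TPM after sham and 19.4% after DMM in the 2-week WT libraries and 23.8% and 22.6% in those of 4 weeks. The Oscar-/- shares were 30.9% and 23.6%, then 26.5% and 23.6%, so the share was lower after DMM in each of the 4 pairs.

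The latent binding proteins other than Ltbp4 had smaller differences between the responses, from -0.65 to -0.49 on the log2 scale. Ltbp3 (chromosome 19, 5740904 to 5758532, plus strand), which escorts latent TGF-beta in bone and growth cartilage, gave 7.92 TPM (sham) and 10.4 TPM (DMM) in the 2-week WT libraries and 9.28 and 12.3 TPM in the 4-week ones. The Oscar-/- libraries gave 13.8 and 9.31 TPM, then 11.9 and 8.24 TPM, so both sham libraries exceeded both DMM libraries of this genotype. Its responses differed by -0.65 ± 0.15 (SE, edgeR adjusted p = 0.0328). Whether the counting used strand was not given in the sources used here, and the count of Ltbp3 is for that reason less certain than those of the other genes, none of which had exons that overlap a gene above 0.27 TPM.

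Ltbp2 (chromosome 12, 84783212 to 84876532, minus strand), which resembles the others but is not known to bind latent TGF-beta, gave 2.28 TPM (sham) and 2.65 TPM (DMM) in the 2-week WT libraries and 2.27 and 3.14 TPM in the 4-week ones. The Oscar-/- libraries gave 2.68 and 2.27 TPM, then 2.99 and 2.02 TPM. It rose in WT (log2 0.48 ± 0.12 SE, edgeR adjusted p = 0.0497), a call made in 6 of the 16 alternatives and not with DESeq2 (adjusted p = 0.211) or limma on log2(TPM + 1) (adjusted p = 0.501). Its difference of -0.60 ± 0.17 did not pass (adjusted p = 0.0698). Ltbp1 (chromosome 17, 75005568 to 75392512, plus strand), the founding member and a fibrillin-bound anchor of latent ligand, lay between 4.80 and 8.49 TPM and its difference was -0.49 ± 0.15 (adjusted p = 0.0763).

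Among the latent binding proteins Ltbp4 took a larger share after DMM in both WT pairs. Ltbp4 took 34.5% of the summed TPM of the 4 genes after sham and 46.95% after DMM at 2 weeks, and 35.0% and 42.3% at 4 weeks. In Oscar-/- its share was 45.4% and 43.7% at 2 weeks, and 36.4% and 42.9% at 4 weeks. The 2 WT pairs and the 4-week Oscar-/- pair therefore had a larger share after DMM, and the 2-week Oscar-/- pair a smaller one.

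**Figure D2:**
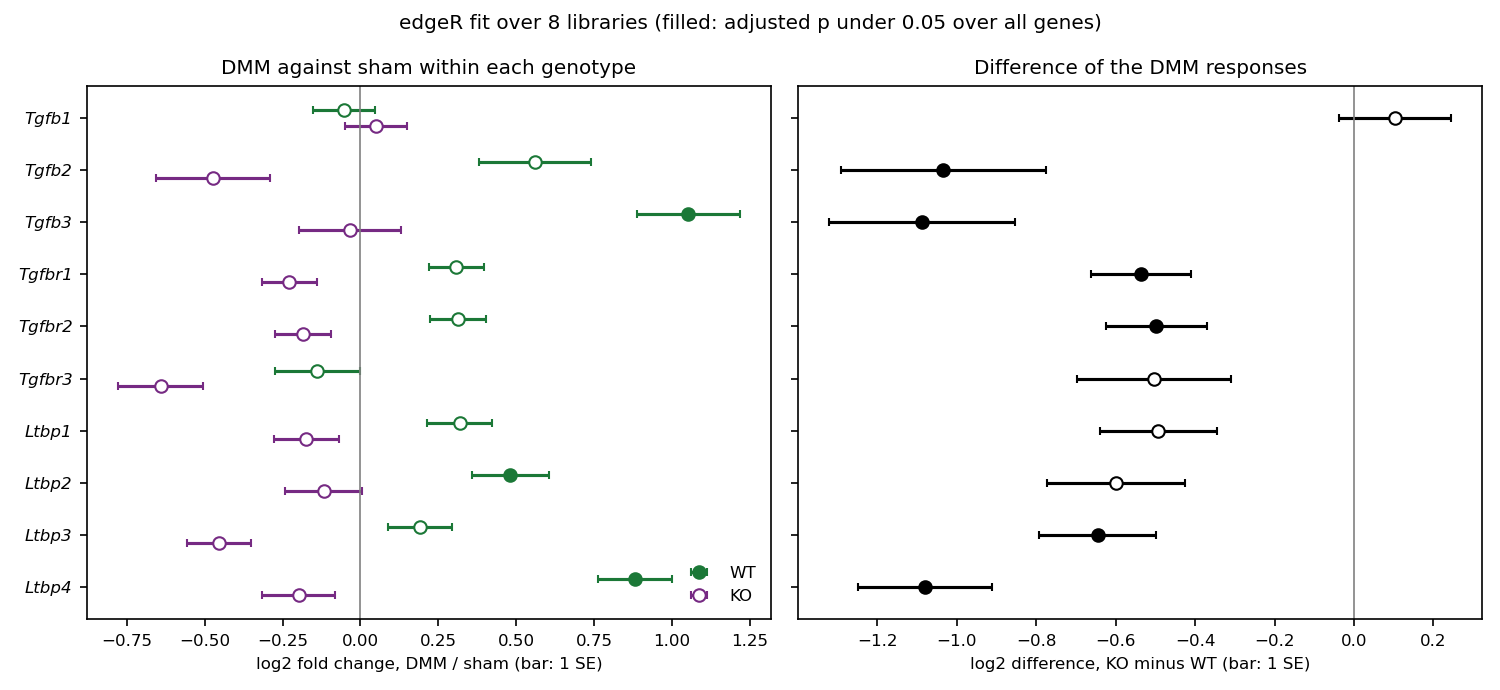
Fitted log2 fold changes from edgeR for the 10 genes (vertical axis): DMM against sham within WT (green) and Oscar-/- (KO, purple) on the left, and the difference of the responses, Oscar-/- minus WT, on the right, with bars of 1 SE and filled points for an adjusted p under 0.05 over all genes. The difference is below 0 for 9 of 10 genes, from -1.09 for Tgfb3 to -0.49 for Ltbp1, and 0.10 for Tgfb1.

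The count of 6 was smaller with any single library left out except the WT sham library at 4 weeks. It was then 3 (WT sham, 2 weeks), 1 (WT DMM, 2 weeks), 0 (Oscar-/- sham, 2 weeks), 2 (Oscar-/- DMM, 2 weeks), 7 (WT sham, 4 weeks), 0 (WT DMM, 4 weeks), 1 (Oscar-/- sham, 4 weeks) and 2 (Oscar-/- DMM, 4 weeks). DESeq2 called Tgfb3, Ltbp3 and Ltbp4, and limma on log2(TPM + 1) called Tgfb2, Tgfb3 and Ltbp4, while counts scaled by library size alone called all but Tgfb1, with the median of all genes at -0.19. Over the 16 alternatives tried, Ltbp4 was called in 13 and Tgfb3 in 12, and the difference was below 0 in all 16 for each of the 9 genes other than Tgfb1.

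The parts of this difference were tested one by one, and they share libraries with it. In WT, DMM against sham called 3 of 10 genes higher (Ltbp4, Tgfb3 and Ltbp2) and 0 lower, with 4.36% of all genes called higher. The median log2 response of the 10 genes in WT was 0.32. Both WT DMM libraries were above both WT sham libraries in TPM for 7 of 10 genes, a pattern met by 21.4% of all expressed genes, and Tgfb1, Tgfbr2 and Tgfbr3 were the exceptions. Without the WT DMM library at 4 weeks no gene of the 10 was called in WT, and the 7 other omissions left 2 to 4, with Ltbp4 and Tgfb3 among them each time.

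In Oscar-/-, DMM against sham called 0 of 10 genes with edgeR, where 0.104% of all genes were called lower. At an unadjusted p under 0.05, Tgfb2, Tgfbr1, Tgfbr3 and Ltbp3 were lower, 4 of 10 genes against 6.44% of all genes. DESeq2 called Tgfbr3 alone and limma called 0. Tgfbr3 and Ltbp3 were both called with no filter on low values and without either WT sham library, and Tgfbr3 alone without the Oscar-/- DMM library at 4 weeks. Both Oscar-/- DMM libraries were below both sham libraries of that genotype in TPM for 7 of 10 genes, against 22.1% of all genes, the exceptions being Tgfb1, Tgfb3 and Ltbp4.

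The sham libraries also differed between genotypes. After sham surgery, 2 of 10 genes were called higher in Oscar-/- than in WT, Ltbp4 (1.75-fold, log2 0.81 ± 0.12 SE, edgeR adjusted p = 0.0116) and Ltbp3 (1.39-fold, log2 0.47 ± 0.10, adjusted p = 0.0437), where 1.99% of all genes were called higher. Both Oscar-/- sham libraries were above both WT sham libraries in TPM for 7 of 10 genes, against 16.5% of all genes, and not for Tgfb1, Tgfbr1 or Tgfbr2. Neither call remained without the Oscar-/- sham library at 2 weeks or with limma, and 5 other omissions left Ltbp4 alone: the WT sham and WT DMM libraries of each week and the Oscar-/- sham library at 4 weeks.

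After DMM, edgeR called 0 of 10 genes between Oscar-/- and WT, where 0.0399% of all genes were called lower. All 10 fitted values were below 0, from -0.55 ± 0.18 SE for Tgfb2 to -0.07 ± 0.10 for Tgfb1. Their median was -0.23, against -0.005 over all genes. Tgfb2, Tgfb3, Tgfbr1, Tgfbr2 and Ltbp4 were lower at an unadjusted p under 0.05, 5 of 10 against 6.39% of all genes. Limma and DESeq2 also called 0, with 9 of the 10 left without an adjusted p by DESeq2.

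Between 4 and 2 weeks, over all combinations of genotype and surgery, Tgfb3 (log2 -0.46 ± 0.12 SE, edgeR adjusted p = 0.0194) and Ltbp3 (-0.28 ± 0.07, adjusted p = 0.0206) were called lower at 4 weeks, 2 of 10 genes where 10.9% of all genes were called lower. Ltbp4 had -0.25 ± 0.08 (adjusted p = 0.0513). These calls depended on scaling: with limma on log2(TPM + 1), where the median of all genes was 0.23, Ltbp3 turned to 0.02 and the genes called were Tgfb1, Tgfbr1 and Tgfbr2, all higher. With library size alone Tgfbr1 was the single gene called, higher by 0.24 (adjusted p = 0.0466). Neither Tgfb3 nor Ltbp3 was called without the Oscar-/- sham library of either week.

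Taken by week and with no test, the difference in response (DIF, the log2 DMM to sham ratio of TPM in Oscar-/- minus that in WT) was below 0 for 10 of 10 genes at 2 weeks and for 9 of 10 at 4 weeks, against 82.6% and 75.0% of all expressed genes. Its median was -1.06 at 2 weeks and -0.77 at 4 weeks for the 10 genes, and -0.41 and -0.22 for all genes. Counts scaled by TMM, which put the median of all genes at -0.008 and -0.02, gave medians of -0.67 and -0.63 for the 10 genes. Ltbp4 had a DIF in TPM of -1.76 ± 0.11 at 2 weeks and -0.79 ± 0.12 at 4 weeks, where the error covers counting alone, and Tgfbr2 had -1.32 ± 0.09 and -0.58 ± 0.08. Tgfb3 and Ltbp3 were close between the weeks, at -1.33 ± 0.19 and -1.45 ± 0.22 for Tgfb3 and -0.96 ± 0.09 and -0.94 ± 0.10 for Ltbp3. Against the mean of both sham libraries of a genotype, Ltbp4 had -1.31 and -1.29, and Tgfbr2 had -0.90 and -0.86. In that setting Tgfb3 had -1.09 and -1.73, and Ltbp3 had -0.74 and -1.16. The contrast between weeks thus depended on the sham library used. For Ltbp2 the DIF in TPM was larger in size at 4 weeks than at 2, at -1.03 ± 0.18 and -0.46 ± 0.18. On TMM-scaled counts, which are not divided by length, it was -0.72 and -0.48. The transcript length used for Ltbp2 was 4155 in the 2-week WT sham library and 6480 in its DMM partner. The part of this length in the TPM values was not tested.

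**Figure D3:**
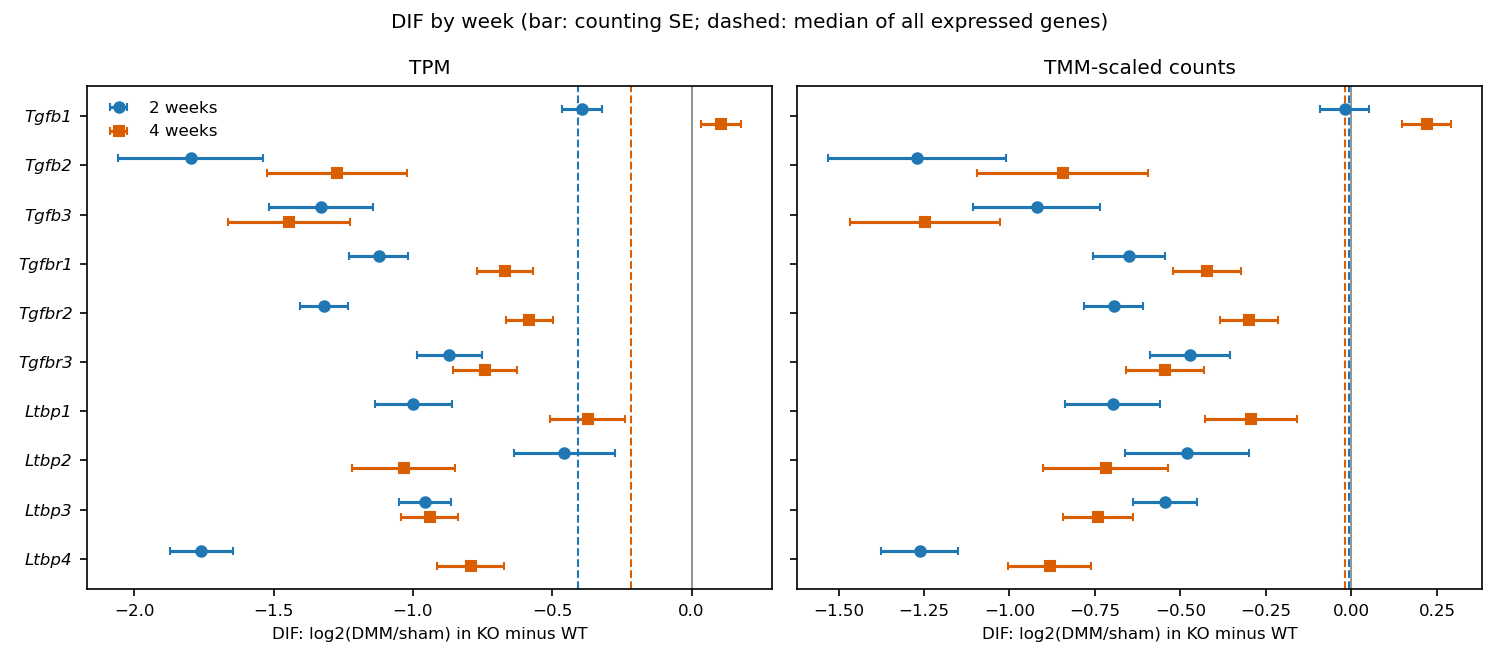
DIF of each of the 10 genes (horizontal axis, log2) at 2 weeks (circles) and 4 weeks (squares), computed from TPM on the left and from TMM-scaled counts on the right, with bars of 1 counting SE and dashed lines at the median of all expressed genes. The median of all genes moves from -0.41 and -0.22 on TPM to -0.008 and -0.02 on TMM-scaled counts, and every gene but Tgfb1 stays below it at both weeks on both scales.

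Promoter sequence is shown for a contrast of 3 genes with a called difference and the 1 that was level, since these share a pathway but not a pattern. RefSeq windows on GRCm38, from 250 bases before to 50 after the transcription start, were held for 8 of the 10 genes and not for Tgfb3 and Tgfbr3. For Ltbp4, with 3 windows, the one nearest to the 5′ end of the GENCODE gene is given. Capitals mark any of 5 motifs on either strand, namely the GC box spelled GGGCGG, the TATA box spelled TATAAA, the core of the SMAD-binding element spelled CAGAC, the AP-1 site spelled TGACTCA and the cyclic AMP response element spelled TGACGTCA. The windows are Tgfb1 at chr7:25686752-25687051 (plus strand), Tgfb2 at chr1:186705940-186706239 (minus), Ltbp3 at chr19:5740650-5740949 (plus) and Ltbp4 at chr7:27337563-27337862 (minus).
Tgfb1: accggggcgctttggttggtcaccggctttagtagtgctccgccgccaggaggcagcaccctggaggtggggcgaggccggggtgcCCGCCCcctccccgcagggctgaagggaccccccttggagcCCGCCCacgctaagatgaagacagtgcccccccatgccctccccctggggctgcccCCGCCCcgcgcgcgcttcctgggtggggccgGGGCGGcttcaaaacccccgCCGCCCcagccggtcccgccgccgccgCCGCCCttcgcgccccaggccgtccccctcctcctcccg
Tgfb2: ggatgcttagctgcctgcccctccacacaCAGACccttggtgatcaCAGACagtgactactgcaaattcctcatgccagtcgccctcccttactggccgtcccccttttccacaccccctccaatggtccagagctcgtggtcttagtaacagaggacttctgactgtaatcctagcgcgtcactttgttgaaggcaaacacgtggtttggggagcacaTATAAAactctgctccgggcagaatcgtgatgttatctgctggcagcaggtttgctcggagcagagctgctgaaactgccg
Ltbp3: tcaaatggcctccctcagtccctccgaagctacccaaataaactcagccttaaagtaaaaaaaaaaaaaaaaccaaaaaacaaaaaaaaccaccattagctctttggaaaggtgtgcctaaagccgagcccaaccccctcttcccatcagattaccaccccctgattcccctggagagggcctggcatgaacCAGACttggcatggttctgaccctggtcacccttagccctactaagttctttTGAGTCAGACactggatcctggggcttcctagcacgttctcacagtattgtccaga
Ltbp4: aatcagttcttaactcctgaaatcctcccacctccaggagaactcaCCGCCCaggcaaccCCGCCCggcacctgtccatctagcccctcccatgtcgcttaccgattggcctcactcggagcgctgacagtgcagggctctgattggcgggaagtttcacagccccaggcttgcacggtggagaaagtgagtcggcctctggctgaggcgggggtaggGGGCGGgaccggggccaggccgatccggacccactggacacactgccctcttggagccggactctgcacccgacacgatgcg
The Tgfb1 window held 6 GC boxes and none of the other motifs, with 77% G and C, and the Ltbp4 window held 3 GC boxes, a motif found in 35.7% of 32851 mouse promoter windows of this length. The Tgfb2 window held no GC box, 1 TATA box, found in 13.6% of all windows, and 2 CAGAC sites. The Ltbp3 window held 1 AP-1 site, found in 5.20% of all windows, whose reverse complement overlaps a CAGAC site, and another CAGAC site further upstream. CAGAC occurred in 49.6% of all windows. Of the windows not printed, the others of Ltbp4, which overlap each other, held 9 and 7 GC boxes, with 81.3% and 80.3% G and C. The count of GC boxes for Ltbp4 thus depended on the window shown. The first window of Tgfbr1 held 2 GC boxes and that of Tgfbr2 a CAGAC site alone. The first of Ltbp1 held TGACGTCA, found in 1.79% of all windows. A match is a run of letters and not a measured binding site.

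The genes whose levels over the 8 libraries most resembled each ligand were found by Pearson's r of log2 CPM among 8294 expressed genes with a mean of at least 5 TPM. For Tgfb3 they were Fmod (r = 0.978), which encodes fibromodulin, a small proteoglycan of cartilage and tendon that binds TGF-beta, Cdc42ep1 (0.975) and Golgb1 (0.971). For Tgfb2 they were Vapb (0.945), Pnkd (0.94) and Parp6 (0.92), and for Tgfb1 Mfsd5 (0.973), Pigt (0.916) and Ewsr1 (0.911). Those named for Ltbp4 are Cavin1 (0.979), which encodes a caveolar coat protein, and Il6st (0.974). These values describe 8 libraries of 4 combinations of genotype and surgery and were picked as among the highest of all candidates, and no test was made of them.

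The wider pathway was examined through 6 lists. Of 15 genes known as TGF-beta targets in various cells, 8 had a lower response in Oscar-/- and 0 a higher one, among them the matrix glycoprotein gene Fn1 (log2 -1.20 ± 0.16 SE, edgeR adjusted p = 0.00745) and the type I collagen gene Col1a2 (-1.27 ± 0.19, adjusted p = 0.0104). In WT 8 of these 15 rose after DMM, Postn by 1.92 ± 0.13 (adjusted p = 6.61e-05) and Col3a1 by 2.74 ± 0.26 (0.000281) among them. In Oscar-/- Postn alone was called, higher by 0.85 ± 0.12 (adjusted p = 0.0365). After sham surgery 4 of 15 were higher in Oscar-/- than in WT. Of all genes, 3.83% were called lower in the interaction and 4.36% higher after DMM in WT. After sham surgery 1.99% were called higher in Oscar-/-. The median difference of this list was -0.79. Acta2 and Tagln of this list are also on the list of pericyte and smooth muscle markers. Dcn (co-receptors and modulators) and Mfap5 (elastic fibre and microfibril) are also on the fibroblast list. Mmp9 (activators and carriers) is also on the osteoclast list.

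The co-receptors and modulators had 7 of 13 genes lower in the interaction, led by Cd109, a membrane-anchored inhibitor of TGF-beta signaling (log2 -1.18 ± 0.13 SE, edgeR adjusted p = 0.0032), Aspn, which encodes asporin, a cartilage proteoglycan that binds TGF-beta (-1.44 ± 0.26, 0.0194) and Bgn, which encodes biglycan (-0.80 ± 0.15, 0.0194). Aspn rose by 2.46 ± 0.19 in WT after DMM (adjusted p = 9.27e-05), and Cd109 fell by 0.64 ± 0.09 in Oscar-/- (log2, adjusted p = 0.0365). Among the activators and carriers of latent ligand, 5 of the 16 tested were lower in the interaction, led by the gelatinase gene Mmp2 (-1.20 ± 0.14, adjusted p = 0.00438), the procollagen protease gene Bmp1 (-0.87 ± 0.13, 0.0105) and the integrin gene Itgav (-0.82 ± 0.15, 0.019). Of 14 elastic fibre and microfibril genes 4 were lower, led by elastin, Eln (-1.24 ± 0.22, 0.0177), and the crosslinking enzyme gene Lox (-0.87 ± 0.16, 0.019). The share of all genes called lower in the interaction was 3.83%.

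Among 13 intracellular mediators 1 was called lower in the interaction, Skil, a SMAD corepressor (log2 -0.76 ± 0.14 SE, edgeR adjusted p = 0.0208). In the interaction 12 of the 13 were below 0 and 8 were lower at an unadjusted p under 0.05. Over all 12538 genes 3.83% were called lower, the median was -0.008, and 3029 had an unadjusted p under 0.05 in either direction. For this list 0 were called after DMM in either genotype. At an unadjusted p under 0.05, 5 of 13 were higher in WT and 3 lower in Oscar-/-. At that threshold 2697 of the 12538 genes differed in either direction in WT, and 6.44% were lower in Oscar-/-. The median log2 difference was -0.47 for these mediators, -0.80 for the co-receptors and modulators, -0.36 for the activators and carriers and -0.69 for the elastic fibre genes, and no test of a list was made.

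Markers of other tissues differed between the same libraries. The 11 fibroblast markers summed to 428 and 479 TPM in the WT sham libraries, 663 and 707 TPM after DMM, 615 and 820 TPM in the Oscar-/- sham libraries and 465 and 529 TPM after DMM. The 9 pericyte and smooth muscle markers summed to 29.4 and 35.6 TPM after sham and 65.7 and 77.3 TPM after DMM in WT, and to 46.0 and 58.5 TPM, then 51.4 and 53.6 TPM in Oscar-/-. The 11 osteoblast and osteocyte markers summed to 2038 and 2305 TPM, then 3725 and 4052 TPM in WT, and to 3023 and 3692 TPM, then 2631 and 2811 TPM in Oscar-/-. In the interaction 6 of 11 fibroblast, 6 of 11 osteoblast, 6 of 11 endothelial and 5 of 8 pericyte markers were lower. Higher were 5 of 10 platelet and 2 of 11 erythroid markers, and none of these lists had a marker at 0 in every library. Of all 12538 genes, 480 were called lower in the interaction and 177 higher. Chondrocyte markers had 2 of 14 called lower, with all 14 below 0 and a median of -0.78, against -0.76 for fibroblast markers. The chondrocyte sum in the Oscar-/- sham library at 2 weeks, 2460 TPM, was the highest of the 8. The 10 skeletal muscle markers summed to 231.3 TPM in the WT sham library at 2 weeks and 56.3 TPM in its DMM partner, against 58.2 to 149 TPM in the other libraries. In WT 2 of the 8 muscle markers tested were called lower after DMM, with a median of -1.51, where 63 of all 12538 genes were called lower. That sham library also had the highest hemoglobin share, 37.7%, and in TPM the lowest level of 7 of the 10 genes described here. On TMM-scaled counts it was the lowest for Tgfbr2 and Ltbp1 alone. In TPM the median log2 DMM to sham ratio of all genes was 0.35 in the 2-week WT pair, against -0.004 on TMM-scaled counts. The part of these tissues in the values of the 10 genes was not tested.

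**Figure D4:**
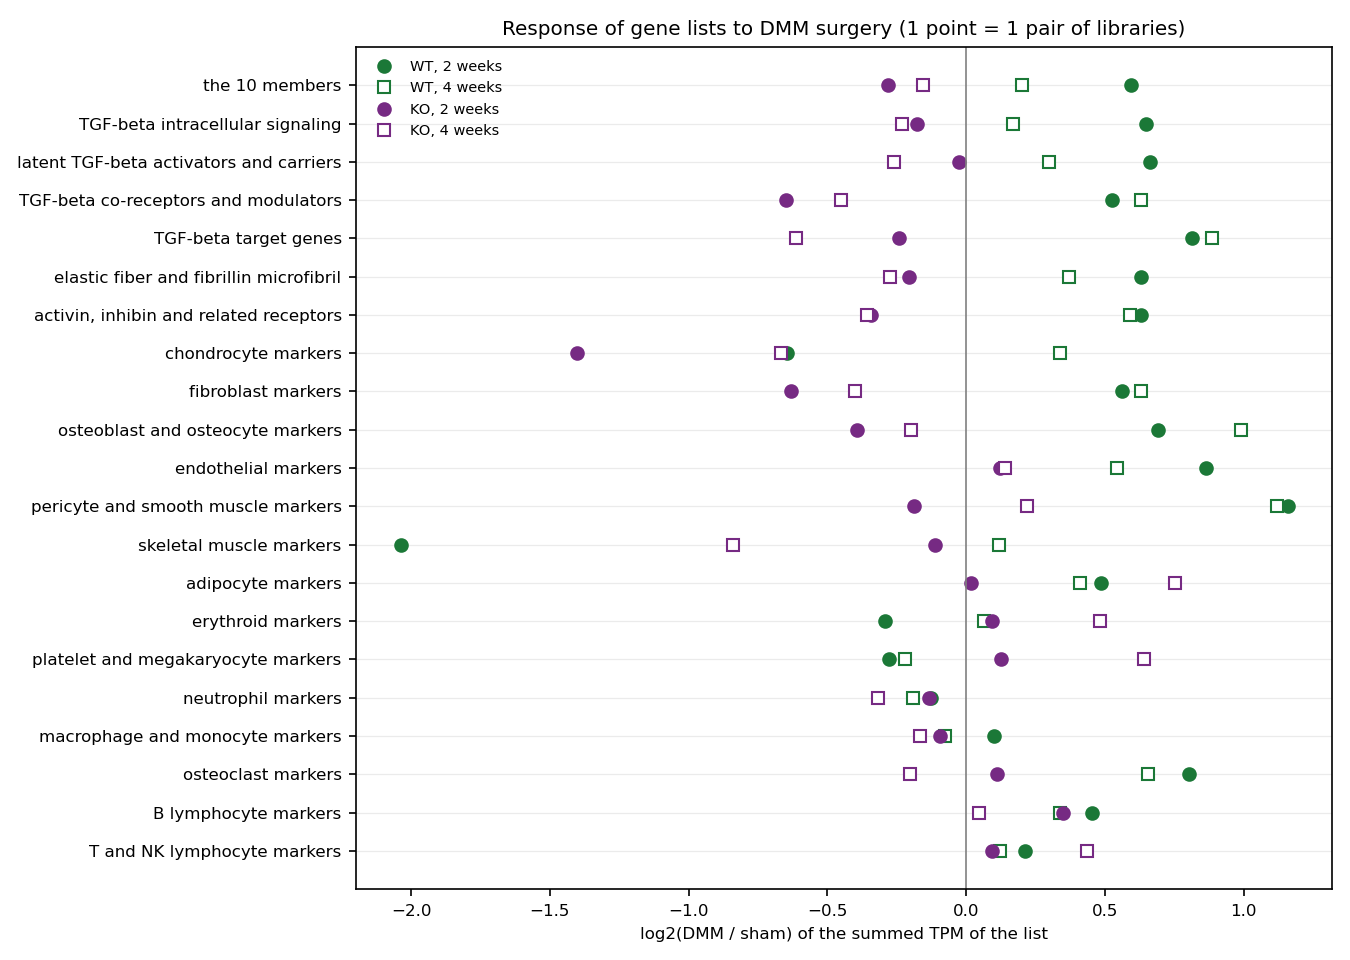
Log2 ratio of DMM to sham in the summed TPM of each gene list (horizontal axis), for WT (green) and Oscar-/- (KO, purple) at 2 weeks (filled circles) and 4 weeks (open squares), with the 10 genes described here in the top line. The sum over the 10 genes was 0.59 and 0.20 in WT and -0.28 and -0.16 in Oscar-/-, and the fibroblast sum was 0.56 and 0.63 in WT and -0.63 and -0.40 in Oscar-/-.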

How the data were processed

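RNA from 8 pools labelled as knee articular cartilage was sequenced as stranded paired-end libraries, 1 per combination of genotype, surgery and week. Per the study's methods the authors trimmed reads with BBDuk, aligned them with STAR 2.6.0a to GRCm38 and quantified genes with RSEM 1.2.17. The submitters' processing notes also name a human build and FastQC 0.11.8. The deposited expected counts are RSEM estimates that are not normalized. The deposited TPM values were made by the authors from the same estimates, and deposited FPKM values were not used here. Identifiers were matched to GENCODE vM21 (52403 of 52636, with 21819 protein-coding). Expected counts were rounded and fitted with edgeR 4.0.16 (TMM scaling, quasi-likelihood test, R 4.3.3) in a model with the 4 combinations of genotype and surgery and week, leaving 3 residual degrees of freedom, over 12538 genes above 1 TPM in at least 1 library. P-values were adjusted over all of these by Benjamini-Hochberg and called under 0.05. Alternatives were DESeq2 1.42.0, limma 3.58.1 on log2(TPM + 1) or log2(TPM + 0.1), other scalings and filters, and each library left out, where the partner of the missing library is assumed to vary like the others. The fits were tested on simulated data. The named genes were all 10 members and, per list, comparison and direction, up to 3 called genes with the lowest p, and up to 3 genes of most similar pattern. Some genes that this rule names are not reported here. The members and lists were chosen with earlier results of these data known.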

Additional observations from a re-analysis of the deposited data

Results flagged for a closer look

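The DMM response differed between genotypes by the interaction test for 6 genes. On the log2 scale, Oscar-/- minus WT, the difference was -1.09 for Tgfb3, -1.08 for Ltbp4, -1.03 for Tgfb2, -0.65 for Ltbp3, -0.54 for Tgfbr1 and -0.50 for Tgfbr2. For each of these 6 genes the DMM to sham ratio in TPM was higher in WT than in Oscar-/- at both weeks. The genes were picked by the interaction test on the same libraries, so this is not a separate check. A higher ratio in WT was also common in TPM. It held for 82.6% of genes in the 2-week libraries and 75.0% in the 4-week ones. Tgfbr3, Ltbp1 and Ltbp2, which were not called, had it at both weeks too. With 1 library in each condition, no check for a library far from others of its own condition could be made.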

How the results depend on the processing

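Of the 6 counts of called genes, that for the interaction was 6 as reported, 3 with DESeq2, 3 with limma on log2(TPM + 1), 2 with limma on log2(TPM + 0.1), and 0 to 7 with 1 library left out. The count in WT was 3 as reported, 2 (without Ltbp2) with DESeq2, either limma fit, RLE scaling or genes of every type, 6 with library size alone and 0 to 4 with 1 library left out. In Oscar-/- it was 0 as reported, 1 with DESeq2, 1 with library size alone, 2 with no filter on low values and 0 to 2 with 1 library left out. After sham it was 2 as reported, 0 with limma on log2(TPM + 1) and on log2(TPM + 0.1), 1 with RLE scaling, 1 with genes of every type and 0 to 2 with 1 library left out. Between weeks it was 2 as reported (Tgfb3 and Ltbp3, lower), 1 with library size alone (Tgfbr1, higher), 3 with either limma fit (Tgfb1, Tgfbr1 and Tgfbr2, higher), 3 with no filter on low values (Tgfb3, Ltbp3 and Ltbp4, lower) and 0 to 2 with 1 library left out. After DMM it was 0 under every alternative run.

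Directions turned for Tgfb1 in the interaction (-0.141 and -0.144 with limma on log2(TPM + 1) and log2(TPM + 0.1), -0.0725 with library size alone), in WT (0.154 and 0.157 with limma, 0.0537 with library size alone) and in Oscar-/- (-0.0189 with library size alone), for Tgfbr3 in WT (0.0634 and 0.0707 with limma), and between weeks for Ltbp3 (0.0194 and 0.0218 with limma), Tgfbr2 (0.416 and 0.456 with limma, 0.118 with library size alone), Tgfbr3 (0.255 and 0.295, 0.127), Ltbp2 (0.0448 and 0.0555, 0.0361) and Tgfb1 (-0.00334 with genes of every type). The DIF of Tgfb1 at 2 weeks was -0.394 as reported and 0.0528 against the mean of both sham libraries, and at 4 weeks it was 0.105 and -0.221. With 1 library left out, log2 values spanned -0.0494 to 0.254 for Tgfb1 in the interaction, -0.203 to 0.0951 for Tgfb1 and -0.343 to 0.0384 for Tgfbr3 in WT, -0.0543 to 0.145 for Tgfb1, -0.216 to 0.159 for Tgfb3, -0.253 to 0.0175 for Ltbp2 and -0.423 to 0.030 for Ltbp4 in Oscar-/-, and -0.151 to 0.000657 for Tgfb1 and -0.268 to 0.113 for Tgfbr3 after DMM. Between weeks they spanned -0.0724 to 0.0577 for Tgfb1, -0.0860 to 0.151 for Tgfb2, -0.0506 to 0.0377 for Tgfbr2 and -0.100 to 0.0861 for Tgfbr3. The causes were not tested. Week was a term of every fit, so sham and DMM libraries were compared within weeks, and the labels number no replicates, so no further pairing was fitted. Tgfb2, with 87 to 180 counts, was the gene most limited by depth.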

Other observations

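Activin and inhibin signaling, a neighbouring branch of the superfamily, was measured through 8 expressed genes. In the interaction 2 of 8 were lower in Oscar-/-, with a median of -0.63 over the 8, the receptor genes Acvr1 (log2 -1.14 ± 0.21 SE, edgeR adjusted p = 0.0196) and Acvr1b (-0.68 ± 0.15, 0.0328). In WT the activin subunit gene Inhbb rose by 1.2 ± 0.24 after DMM (adjusted p = 0.0168) and Acvr1 by 0.69 ± 0.15 (0.025). Of all genes, 3.83% were called lower in the interaction and 4.36% higher after DMM in WT.

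Between the weeks, 4 of the 16 activators and carriers of latent TGF-beta tested were higher at 4 weeks and 2 lower, where 11.2% of all genes were called higher and 10.9% lower. Those higher included the integrin gene Itgb3 (log2 1.44 ± 0.09 SE, edgeR adjusted p = 5.4e-06), the thrombospondin gene Thbs1 (1.203 ± 0.12, 0.000144) and Lrrc32, which encodes a cell-surface carrier of latent TGF-beta (0.75 ± 0.13, 0.00287). Those lower were the fibrillin gene Fbn1 (-0.80 ± 0.12, edgeR adjusted p = 0.00152) and the gelatinase gene Mmp2 (-0.41 ± 0.07, 0.0035). All 10 platelet and megakaryocyte markers were also higher at 4 weeks, their sum being 116 to 182 TPM at 2 weeks and 548 to 917 TPM at 4 weeks, and the part of platelets in these values was not tested.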
